A study of Mus musculus with 3 samples.

Results

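The unfolded protein response of the endoplasmic reticulum was followed through 10 genes, which were taken by symbol, each with its transcript of highest count: Ern1, Atf6, Xbp1, Hspa5, Hsp90b1, Calr, Dnajb9, Sdf2l1, Pdia4 and Herpud1. All 10 were found among the 46316 gene symbols of the deposited tables, and all 10 passed the low-count filter, as did 13381 genes in all. RNA had been sequenced from C2C12 cells, an immortalised mouse myoblast line, collected on day 4 of myogenic differentiation. There were 3 libraries, 1 per group: wild-type cells (WT), cells whose label gives a Drp1 knockout (KO; Drp1 is the GTPase of mitochondrial fission), and such knockout cells given FLAG-tagged Drp1 by transient expression (rescue). The method of knockout, and whether the cells were 1 clone, were not given in the sources used here. With 1 library per group there is no replicate check: the values describe these libraries, and no p-value was computed.

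The unfolded protein response adjusts the folding capacity of the endoplasmic reticulum (ER) to its load of new secretory and membrane proteins. Its sensors IRE1 (gene Ern1), ATF6 and PERK (gene Eif2ak3) sit in the ER membrane, and the chaperone BiP (gene Hspa5) holds them inactive until unfolded proteins draw it away. IRE1 then cuts the Xbp1 mRNA, ATF6 is cleaved into a transcription factor, and PERK slows translation and favours ATF4. Muscle cells carry a specialised ER, the sarcoplasmic reticulum, which stores the calcium used in contraction.

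The libraries were of like depth, between 13790417 and 13925296 gene counts. Dnm1l, the gene of Drp1, had counts of 1823 (WT), 1284 (KO) and 1481 (rescue). Its mRNA was thus 1.39-fold lower in KO and 1.21-fold lower in rescue than in WT, and far from 0 in each. These counts do not show whether the protein was lost, and KO and rescue are used here as the labels' names. The differentiated state was checked with markers: all 10 listed myotube markers were detected in each library, with summed levels of 17231 CPM (counts scaled to library size) in WT, 17017 in KO and 21955 in rescue. These sums are led by Acta1 and Myh3. By gene, 7 of the 10 were lower in KO than in WT, with a median log2 ratio of -0.23, and Ckm and Actn2 were over 2-fold lower. All 10 were higher in rescue than in KO, with a median of 0.48. The 4 myoblast markers summed to 860 CPM in WT, 317 in KO and 368 in rescue. All 3 that passed the filter were lower in KO, with a median of -0.60, and Cdh15 had counts of 9651 (WT), 2756 (KO) and 3318 (rescue). The 4 immune markers summed to between 26 and 57 counts. Of these, Cd68 had counts of 22 (WT), 55 (KO) and 42 (rescue), Itgam had at most 4, and Ptprc and Adgre1 were at 0. The 4 endothelial markers summed to 8 to 18 counts, nearly all from Tek, with Pecam1 at 0. The 4 adipocyte markers summed to at most 5, with Adipoq at 0. The 5 fibroblast markers summed to 751 CPM in WT, 1507 in KO and 1322 in rescue. Of these, Col1a1 and Pdgfra were higher in KO than in WT, Dcn was lower, and Lum and Thy1 had at most 9 counts in any library. The part of these markers in the results below was not tested. In such bulk libraries fewer cells of a type and less RNA per cell cannot be told apart.

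In KO against WT the 10 genes went in different directions and by little. Dnajb9, Hspa5, Ern1 and Atf6 were higher, by 1.42-fold, 1.37-fold, 1.27-fold and 1.21-fold. Herpud1, Xbp1 and Calr were lower, by 1.25-fold, 1.20-fold and 1.10-fold. Hsp90b1, Sdf2l1 and Pdia4 were within 1.06-fold of WT. None of the 10 differed by 1.5-fold or by 2-fold, beside 22.6% and 9.42% of all genes tested. The median log2 ratio of the 10 was 0.078, beside 0.00051 for all genes tested. A counting interval is the 95% range that the read counts alone allow for a ratio. It lay wholly to 1 side of 0 for 8 of the 10 genes, and for 58.3% of all genes. Intervals are narrower at high counts, so such shares depend on depth as well as on the size of the ratios.

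**Figure D1:**
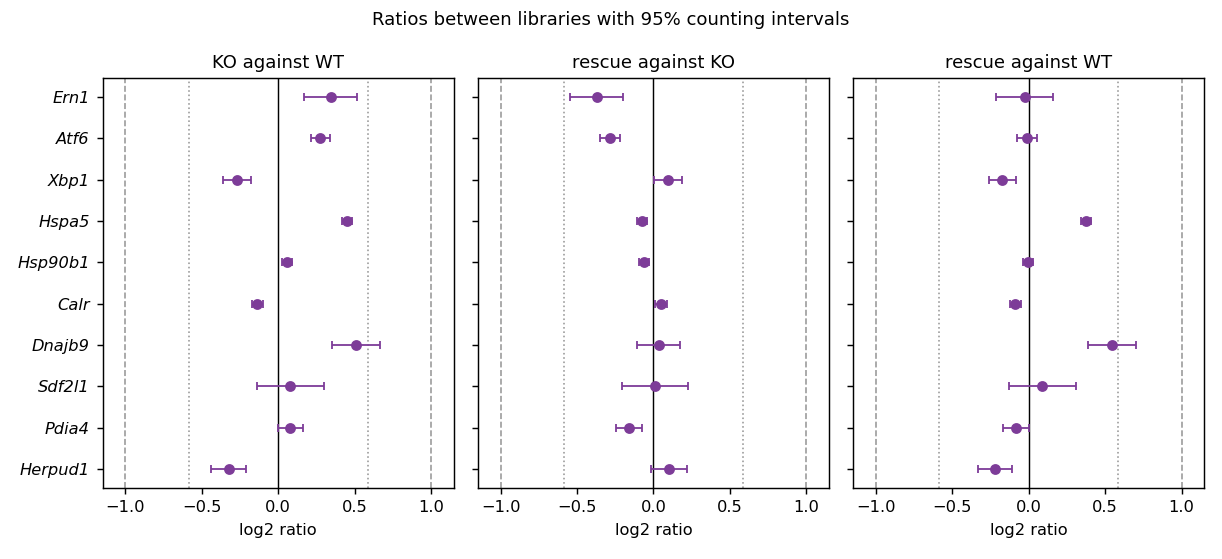
Log2 ratio (horizontal axis) of each of the 10 genes in the 3 pairs of libraries, with bars for the 95% counting interval, dotted lines at 1.5-fold and dashed lines at 2-fold. No point passes 1.5-fold in any panel; Dnajb9 and Hspa5 lie above 0 in KO and in rescue against WT, while Ern1 and Atf6 lie near 0 in rescue against WT.

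The sensor genes Ern1 and Atf6 were highest in KO, and their WT and rescue levels were not distinguishable within counting error. Ern1, the kinase and RNase IRE1, had counts of 499 (WT), 622 (KO) and 480 (rescue). KO was thus the high library. The log2 ratio was 0.34 in KO against WT (interval 0.17 to 0.52), -0.37 in rescue against KO (interval -0.55 to -0.20) and -0.028 in rescue against WT (interval -0.21 to 0.16). Atf6, the membrane-bound transcription factor, had 3743, 4449 and 3646 counts in the same order. KO again stood above the other libraries, which were close to each other. Its log2 ratio was 0.27 in KO against WT (interval 0.21 to 0.34), -0.28 in rescue against KO (interval -0.35 to -0.22) and -0.0096 in rescue against WT (interval -0.076 to 0.057). Before the length trend given below was taken out, Ern1 and Atf6 had the lowest ratios of the 10 in rescue against KO. They were at percentile 7.36 and 11.9 of all genes tested.

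Ern1 and Atf6 also had the longest transcripts of the 10, at 6908 and 7801 bases beside 1108 to 2759 for the others, and ratios across all genes moved with transcript length. Among protein-coding genes, the tenth with the longest transcripts had a median of 0.19 for KO against WT and of -0.21 for rescue against KO, as log2 ratios. The tenth with the shortest had -0.21 and 0.23. With this trend taken out, Ern1 was at 0.20 for KO against WT and at -0.23 for rescue against KO. Atf6 was at 0.12 and -0.12, beside 0.27 and -0.28 with the trend left in. These Atf6 values lay outside the counting intervals given above, and those of Ern1 lay inside. In rescue against WT the trend at these lengths was near 0 (0.0071 for Ern1 and 0.0044 for Atf6). The part of length in the pattern of the sensor genes was not tested. Neither gene took the other sign in these comparisons. In rescue against KO with the trend taken out, Ern1 was still the lowest of the 10. Pdia4 (-0.203), Sdf2l1 (-0.181) and Hspa5 (-0.120) then lay below Atf6 (-0.117).

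**Figure D2:**
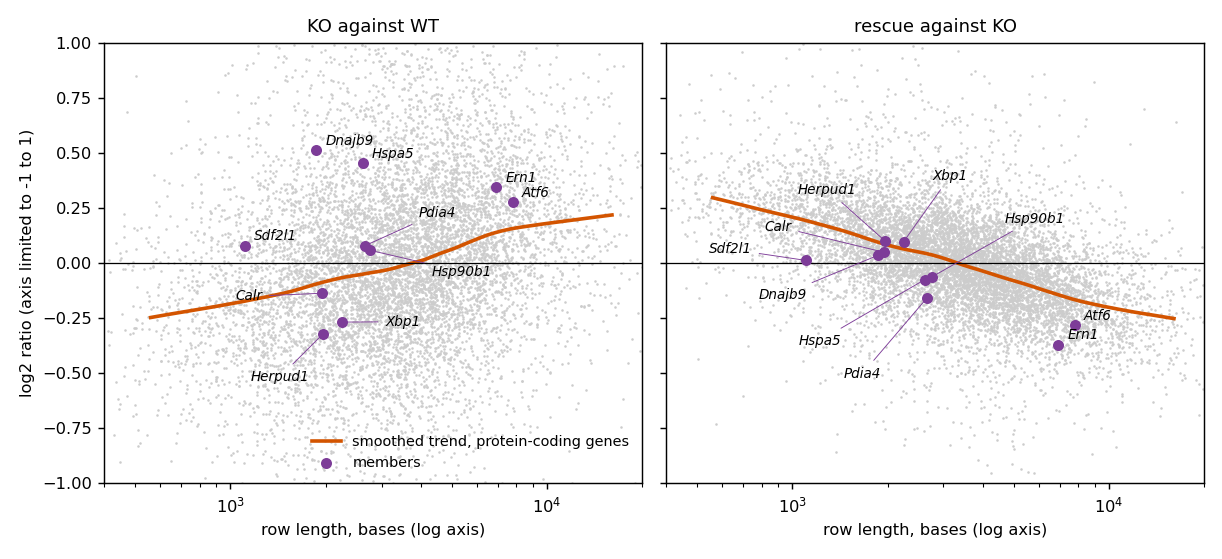
Log2 ratio against transcript length in bases (log axis) for protein-coding genes (grey) and the 10 genes (purple), with the smoothed trend in orange; the vertical axis is limited to -1 to 1. Ern1 and Atf6 lie at the long end, where the trend is above 0 for KO against WT and below 0 for rescue against KO, while Dnajb9 and Hspa5 lie far above the trend in KO against WT.

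Xbp1 encodes the transcription factor made after IRE1 has cut its mRNA. It had counts of 2238 (WT), 1825 (KO) and 1948 (rescue), so WT was the highest library. The log2 ratio was -0.27 in KO against WT (interval -0.36 to -0.18), 0.097 in rescue against KO (interval 0.0041 to 0.19) and -0.17 in rescue against WT (interval -0.26 to -0.084). IRE1 removes a segment of 26 bases, which shifts the reading frame and yields the active protein. The tables held 2 Xbp1 transcripts, of 2247 and 2221 bases, a difference of 26. Their counts were identical in every library, so the uncut and the cut form could not be told apart and Xbp1 splicing was not measured. The segment is shown because it is the part of the mRNA on which the activity of the Ern1 product could be read. It lies in exon 4 of 5, in coding sequence, at chr11:5524279-5524304 on the plus strand (GENCODE transcript, build GRCm38). The capitals mark the 26 bases between the cuts, each made after the third base of a CNGCAG site, with 20 bases to either side in lower case.
Xbp1 exon 4: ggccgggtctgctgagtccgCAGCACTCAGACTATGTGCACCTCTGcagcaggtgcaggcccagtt

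The chaperones held most of the reads of the 10 genes, and Hspa5 had the largest ratio among them in KO against WT. Hspa5, the BiP that binds unfolded chains and keeps the sensors inactive, had counts of 11869 (WT), 15950 (KO) and 15100 (rescue). KO and rescue were both above WT. Its log2 ratio was 0.45 for KO against WT (interval 0.42 to 0.49) and 0.38 for rescue against WT (interval 0.34 to 0.41), at percentiles 83.3 and 82.3 of all genes tested. Rescue was close to KO, with a log2 ratio of -0.076 (interval -0.11 to -0.044).

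Hsp90b1, the ER form of the HSP90 chaperone (GRP94), had counts of 14605 (WT), 14932 (KO) and 14261 (rescue). These are nearly level: the log2 ratio was 0.057 in KO against WT (interval 0.024 to 0.090), -0.063 in rescue against KO, and -0.0061 in rescue against WT. Calr, calreticulin, which folds glycoproteins and binds calcium, had 12785, 11418 and 11785 counts. WT was the highest library for it, with log2 ratios of -0.14 in KO against WT (interval -0.17 to -0.10), 0.048 in rescue against KO and -0.089 in rescue against WT (interval -0.13 to -0.053). With the length trend taken out, Calr was at -0.049 in KO against WT, outside the interval given.

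The order of the chaperones differed between libraries when levels were taken per kilobase of transcript, which allows genes to be compared. In WT, Calr was at 469 CPM per kilobase, Hsp90b1 at 377 and Hspa5 at 323. In KO, Hspa5 led at 442, followed by Calr at 426 and Hsp90b1 at 392. In rescue, Calr was at 440, Hspa5 at 419 and Hsp90b1 at 375. Hspa5 made up 30.2% of the counts of these 3 genes in WT (Wilson 95% interval 29.8 to 30.7), 37.7% in KO (37.2 to 38.2) and 36.7% in rescue (36.2 to 37.2). Together the 10 genes took 0.363% (WT), 0.391% (KO) and 0.372% (rescue) of gene counts. The other 7 genes were well below the 3 chaperones, between 70.9 for Xbp1 and 5.14 for Ern1 in WT, in CPM per kilobase. Sdf2l1 and Dnajb9, at 22.1 and 22.0 in WT, were not distinguishable there within counting error.

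**Figure D3:**
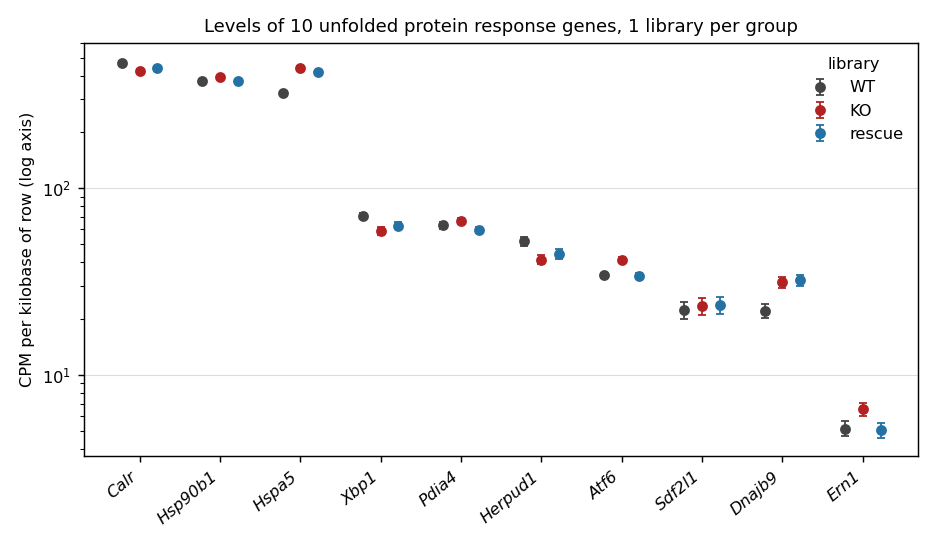
Level of each of the 10 genes in CPM per kilobase of transcript (log axis), 1 point per library, with bars for the exact Poisson 95% counting interval. Hspa5 is the lowest of the 3 leading chaperones in WT and the highest in KO, and Dnajb9 is at the level of Sdf2l1 in WT only.

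Among the other members of the 10 that work with the chaperones or in degradation, Dnajb9 alone had a ratio of the size of that of Hspa5. Dnajb9 (ERdj4), a J-domain protein that works with BiP and hands misfolded proteins to degradation, had counts of 575 (WT), 805 (KO) and 823 (rescue). KO and rescue were alike and both above WT. The log2 ratio was 0.51 in KO against WT (interval 0.35 to 0.67), 0.035 in rescue against KO (interval -0.11 to 0.18) and 0.55 in rescue against WT (interval 0.39 to 0.70). With the length trend taken out it was 0.61 in KO against WT, past 1.5-fold.

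Sdf2l1, a partner of the ER J-domain proteins, had 344, 357 and 359 counts in WT, KO and rescue. With the length trend left in, no difference was detectable at this depth. The intervals of all 3 ratios held 0, and that of KO against WT ran from -0.14 to 0.30. Sdf2l1 had the shortest transcript of the 10, at 1108 bases. With the trend taken out, its log2 ratio in KO against WT was 0.25, beside 0.20 for Ern1 and 0.12 for Atf6. Pdia4, a protein disulfide isomerase (ERp72), had 2357, 2444 and 2182 counts. Its interval held 0 in KO against WT (-0.0045 to 0.16) and in rescue against WT (-0.17 to 0.0016), and rescue was below KO with a log2 ratio of -0.16 (interval -0.24 to -0.077).

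Herpud1 encodes a ubiquitin-like membrane protein of ER-associated degradation. It had counts of 1422 (WT), 1116 (KO) and 1195 (rescue), so that it was lowest in KO and highest in WT. The log2 ratio was -0.32 in KO against WT (interval -0.44 to -0.21) and -0.22 in rescue against WT (interval -0.33 to -0.11). In rescue against KO it was 0.10, with an interval of -0.017 to 0.22 that held 0. Hspa5 and Herpud1, both known targets of the response, thus lay on opposite sides of WT in KO and in rescue.

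The deposited transcripts of a gene mostly gave the same picture. Ern1 was the exception in its counts: its shorter transcript, of 3976 bases, had counts of 264 (WT), 338 (KO) and 248 (rescue), between 51.7% and 54.3% of the longer one. The ratios of both Ern1 transcripts were alike, at 0.38 and 0.34 for KO against WT, then -0.44 and -0.37 for rescue against KO. For Atf6 (4 transcripts), Hspa5, Xbp1 and Pdia4 (2 each) the lowest count was at least 99.8% of the highest in each library. For Herpud1 (3 transcripts) it was at least 95.4%. Hsp90b1, Calr, Dnajb9 and Sdf2l1 had 1 transcript each.

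Promoters of many ER chaperone genes carry the ER stress response element (ERSE), which ATF6 binds together with NF-Y. The element was searched on both strands as CCAAT followed by 9 bases of any kind and CCACG, and its variant ERSE-II as ATTGG followed by 1 base and CCACG. Also searched were the XBP1-type core as TGACGTGG or TGACGTGA, the amino acid response core TTGCATCA, and CCAAT and CCACG by themselves, which overlap the ERSE. The windows were the 250 bases before the gene start in RefSeq's GRCm38.p6 table, which held 9 of the 10 genes (all but Atf6). An exact ERSE was found in the windows of Hspa5, Hsp90b1 and Calr, and in 0.113% of all 32851 windows. ERSE-II was found in that of Herpud1 and in 0.0304% of all windows. The genes are named in textbooks as targets of the response, so this is a description of them and not a test. CCAAT was in 7 of the 9 windows and in 33.8% of all, and CCACG in 7 of the 9 and in 28.3%.

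The windows of these 4 genes and of Dnajb9 are shown because genes with an element lay on different sides of WT, while Dnajb9, with the largest ratio, had no exact ERSE in its window. All are written 5′ to 3′ along the gene, and capitals mark each match to any of the searched motifs, gaps included. The window of Hspa5 lies at chr2:34771840-34772089, plus strand, and its ERSE spans bases 65 to 47 before the start. It also held TGACGTGA, at bases 157 to 150, which is in 0.350% of all windows. That of Hsp90b1 lies at chr10:86705445-86705694, minus strand, with 1 ERSE on each strand. That of Calr lies at chr8:84846932-84847181, minus strand, with an ERSE on the reverse strand. That of Herpud1 lies at chr8:94386179-94386428, plus strand, with ERSE-II at bases 52 to 42 and TTGCATCA at bases 112 to 105, the latter in 0.791% of all windows. That of Dnajb9 lies at chr12:44210069-44210318, minus strand, with 1 CCAAT and 2 CCACG matches.
Hspa5: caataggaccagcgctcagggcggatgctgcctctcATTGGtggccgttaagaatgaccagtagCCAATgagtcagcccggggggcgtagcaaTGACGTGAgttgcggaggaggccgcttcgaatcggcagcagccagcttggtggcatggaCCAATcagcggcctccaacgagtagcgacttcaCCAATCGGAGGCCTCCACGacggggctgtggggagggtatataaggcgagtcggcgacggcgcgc
Hsp90b1: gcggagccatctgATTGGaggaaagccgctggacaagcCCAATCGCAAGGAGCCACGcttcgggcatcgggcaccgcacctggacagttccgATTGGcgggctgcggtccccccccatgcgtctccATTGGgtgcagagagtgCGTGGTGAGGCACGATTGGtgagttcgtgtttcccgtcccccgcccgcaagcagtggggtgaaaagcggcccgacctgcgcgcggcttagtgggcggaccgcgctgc
Calr: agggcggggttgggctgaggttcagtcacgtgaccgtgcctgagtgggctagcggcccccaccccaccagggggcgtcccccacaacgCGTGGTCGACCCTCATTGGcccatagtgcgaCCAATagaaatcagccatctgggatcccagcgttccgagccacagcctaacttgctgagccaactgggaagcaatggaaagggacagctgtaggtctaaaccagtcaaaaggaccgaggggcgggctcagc
Herpud1: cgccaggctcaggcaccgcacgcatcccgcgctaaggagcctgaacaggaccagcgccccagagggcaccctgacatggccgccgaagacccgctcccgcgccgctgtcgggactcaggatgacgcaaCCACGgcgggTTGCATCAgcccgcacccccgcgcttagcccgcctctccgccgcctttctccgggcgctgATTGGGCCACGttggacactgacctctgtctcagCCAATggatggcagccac
Dnajb9: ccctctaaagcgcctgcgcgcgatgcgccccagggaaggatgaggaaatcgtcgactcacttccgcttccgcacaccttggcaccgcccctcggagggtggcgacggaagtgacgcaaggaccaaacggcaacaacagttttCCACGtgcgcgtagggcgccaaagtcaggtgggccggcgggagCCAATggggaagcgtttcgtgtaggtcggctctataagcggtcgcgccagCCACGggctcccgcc

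In KO against WT an exact ERSE stood in the windows of a gene that was 1.37-fold higher, of one that was nearly level and of one that was 1.10-fold lower. With the length trend taken out, their log2 ratios were 0.50 (Hspa5), 0.10 (Hsp90b1) and -0.049 (Calr). The Herpud1 window held both an ERSE-II and the amino acid response core, and Herpud1 was 1.25-fold lower. A match shows only that these letters are present, and nothing was measured at these promoters.

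In rescue against KO none of the 10 genes differed by 1.5-fold or 2-fold, beside 6.58% and 1.88% of all genes tested. The intervals of 7 of the 10 lay wholly to 1 side of 0, beside 35.3% of all genes. Among these were Hsp90b1 and Calr, whose counts are high and whose log2 ratios were only -0.063 and 0.048. The median log2 ratio of the 10 was -0.026, beside 0.0029 for all genes. Ern1, Atf6, Pdia4, Hspa5 and Hsp90b1 were lower in rescue, and Xbp1, Calr, Herpud1, Dnajb9 and Sdf2l1 were higher, the last 3 with intervals that held 0. With the length trend taken out, Calr, Dnajb9 and Sdf2l1 took the other sign (-0.038, -0.059 and -0.18), and the median was -0.11. In rescue against WT none of the 10 reached 1.5-fold or 2-fold, beside 18.4% and 7.65% of all genes. The intervals of 5 lay to 1 side of 0, beside 52.3%: those of Hspa5 and Dnajb9 above, and those of Xbp1, Calr and Herpud1 below. KO and rescue are compared with the same WT library, so these values and those of KO against WT are not independent.

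The other ER signalling, folding, degradation and translocation genes had medians near 0 in KO against WT, and few passed 1.5-fold, beside 22.6% of all genes. Of 12 signalling genes none reached 1.5-fold, with a median log2 ratio of -0.062 (0.018 with the length trend taken out). Mbtps2, the protease that makes the second cut in ATF6, was 1.43-fold higher, and Creb3l2, a relative of ATF6, was 1.33-fold higher. Creb3, another relative, had a log2 ratio of -0.53. Eif2ak3, the sensor PERK, named for its role after its values were seen, had counts of 432 (WT), 326 (KO) and 307 (rescue). Its log2 ratio was -0.38 in KO against WT (interval -0.59 to -0.17) and -0.46 in rescue against WT, so it lay below WT where Ern1 and Atf6 in KO lay above.

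Of 27 further folding genes 1 passed 1.5-fold (2 with the length trend taken out) and none 2-fold, with a median of 0.0074. The 1 was Ero1a, the oxidase that recharges the disulfide isomerases, with counts of 554 (WT), 899 (KO) and 731 (rescue) (1.65-fold higher in KO). The isomerases Pdia5 and Pdia6 were 1.42-fold and 1.38-fold higher in KO, beside 1.06-fold for Pdia4. Dnajc3, a J-domain partner of BiP named after its values were seen, had a log2 ratio of -0.40. Pdia6 had 4417, 6009 and 5992 counts, a pattern like that of Hspa5.

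Of 20 genes of ER-associated degradation, 19 passed the filter. Their median was -0.043, with none at 1.5-fold above WT and 2 at 1.5-fold below. Those 2 were Vcp, the ATPase that pulls proteins out of the ER, with counts of 8726 (WT), 5633 (KO) and 5827 (rescue), and Ube2g2, a ubiquitin-conjugating enzyme, with 3051, 1958 and 2423. With the length trend taken out, 0 genes of this list were 1.5-fold below WT. Sel1l, the scaffold of the main ubiquitin ligase complex, was 1.46-fold higher in KO. Of the translocation genes, which bring proteins into the ER, 19 of 20 passed the filter, with a median of -0.026 (0.025 with the length trend taken out). Sec11c, a signal peptidase subunit, was the 1 gene at 1.5-fold below WT, with counts of 187 (WT), 118 (KO) and 151 (rescue). With the trend taken out, 0 were. Sec61b, of the translocation channel, and Ssr1, of the associated complex, had log2 ratios of -0.43 and -0.29.

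Many genes listed for the PERK and ATF4 branch were higher in KO. PERK activity was not measured, and the part of PERK in these values was not tested. Atf4 itself, named after its values were seen, had counts of 4377 (WT), 5115 (KO) and 5441 (rescue). It was 1.19-fold higher in KO than in WT, while Eif2ak3 was lower, as given above. Of 15 listed, 14 passed the filter, with a median log2 ratio of 1.25, and 8 were at least 2-fold higher. Over all genes, 9.42% were past 2-fold in either direction. No gene of the 14 was 1.5-fold lower. Ppp1r15b, a phosphatase subunit named after its values were seen, had an interval that held 0 (-0.052 to 0.18). The 8 past 2-fold were Trib3 (5.85-fold), Atf3 (3.89-fold), Slc7a11 (3.41-fold), Asns (3.22-fold), Chac1 (3.11-fold), Cebpb (2.64-fold), Sesn2 (2.44-fold) and Ddit4 (2.32-fold). Slc7a11 (34, 115 and 81 counts in WT, KO and rescue) and Cebpb (39, 102 and 76) were low. Their log2 intervals in KO against WT were wide, at 1.22 to 2.38 and 0.87 to 1.98, and that of Cebpb reached below 2-fold. Ddit3, the factor CHOP, named after its values were seen, had counts of 534 (WT), 911 (KO) and 794 (rescue). In rescue against WT 7 of the 14 were at least 2-fold higher, beside 7.65% of all genes past 2-fold. Many of these genes were already known from these libraries to be higher in KO, so the count is no independent support. The difference between this list and the 10 genes was not tested, since there is 1 library per group.

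**Figure D4:**
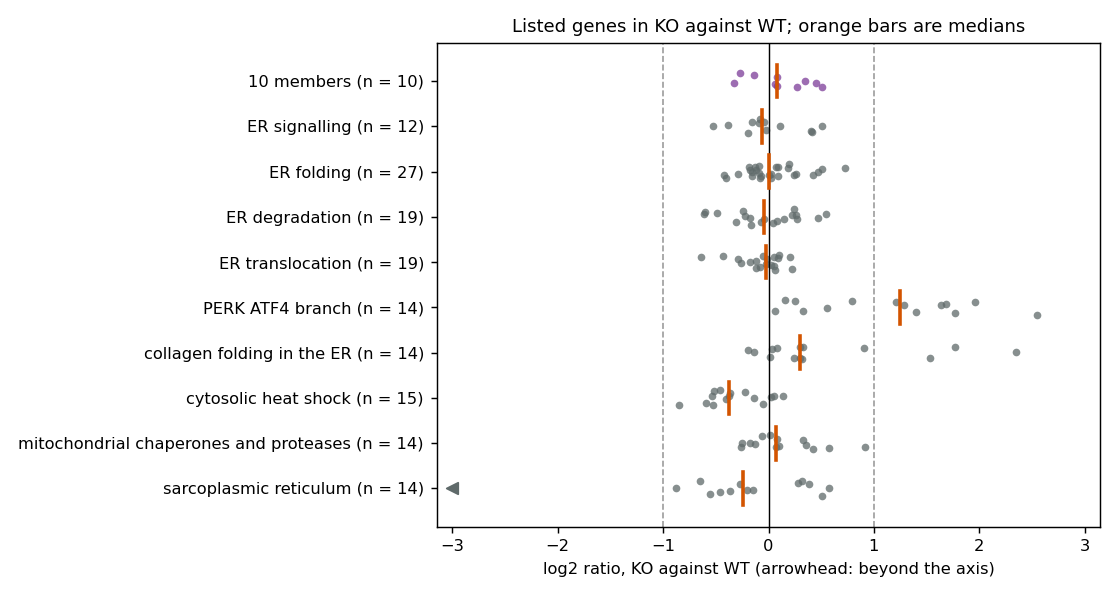
Log2 ratio of each listed gene in KO against WT (horizontal axis), 1 point per gene that passed the filter, with orange bars at list medians and dashed lines at 2-fold; the arrowhead marks Trdn, beyond the axis. The medians of the 10 genes and of the ER signalling, folding, degradation and translocation lists lie near 0, that of the collagen folding list at 0.30, and that of the PERK and ATF4 list at 1.25.

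Chaperones of other compartments had their own values. Cytosolic heat shock genes had a median of -0.38 in KO against WT, with 15 of 16 past the filter. Over all genes, 22.6% were past 1.5-fold in either direction. Of the 15, none was at 1.5-fold above WT and 2 were at 1.5-fold below. Those were Dnaja1, a cytosolic J-domain protein (3612, 1975 and 2276 counts in WT, KO and rescue), and Hspa1b, an inducible HSP70 (186, 121 and 137). With the length trend taken out, 1 gene was 1.5-fold below. Cryab, a small heat shock protein, had a log2 ratio of -0.54. Hspa9, the mitochondrial counterpart of Hspa5, had 7729, 10183 and 9761 counts and was 1.34-fold higher in KO, close to the 1.37-fold of Hspa5. Its partner Dnaja3 was 1.49-fold higher, and the protease Lonp1 was 1.89-fold higher. Lonp1 was the 1 gene of the 14 in the mitochondrial list past 1.5-fold (2 with the length trend taken out), beside 22.6% of all genes. The median of the list was 0.075, near the 0.078 of the 10 ER genes.

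In the sarcoplasmic reticulum list, 14 of 16 genes passed the filter, with a median of -0.24 for KO against WT and of 0.27 for rescue against KO. In KO against WT 9 of the 14 were below 0 and 5 above, the highest at 0.57. Of all genes tested, 50.1% were above 0. The calcium pumps Atp2a1 and Atp2a2 had 7107 and 14595 counts in WT, 3802 and 9155 in KO, and 5185 and 11211 in rescue. With the length trend left in, both were lowest in KO, as Calr was. Their log2 ratios of -0.88 and -0.65 were larger than its -0.14. Trdn, triadin, had 663, 10 and 37 counts, few in both KO and rescue. It was 62.1-fold lower in KO and 17.4-fold lower in rescue than in WT. At such counts the log2 intervals are wide, at -7.09 to -5.14 for KO against WT and -4.65 to -3.66 for rescue against WT. Casq1, calsequestrin, was highest in rescue (1972, 1318 and 6534 counts).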

How the data were processed

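RNA from 3 libraries was sequenced with a DNBSEQ-G400RS kit after TRIzol extraction, per the labels' protocols. The submitters' processing notes name cutadapt 1.9.1, HISAT2 2.2.1, featureCounts 2.0.0 and build GRCm39. Settings, strandedness and the handling of multiply matching reads were not given in the sources used here, so overlapping, antisense and near-identical genes are uncertain. The deposited count column held whole numbers per transcript, the deposited RPKM column length- and depth-scaled values, and the deposited TPM column length-scaled values with a set total, per the file headers and values. Only counts were analysed.

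Each gene took its transcript with the highest count over the libraries. TMM factors from edgeR 4.0.16 (R 4.3.3) set the library scale, and genes with a mean of 1 CPM or more were kept. Log2 ratios used a pseudocount of 0.5 and exact conditional (Clopper-Pearson) 95% counting intervals. They hold counting error only, as PCR copies were not identified. Alternatives included DESeq2 1.42.0 size factors. Promoter windows are RefSeq's (GRCm38.p6) and the Xbp1 segment is from GENCODE's mouse annotation (GRCm38), not the files' build. Calculations were tested on simulated data. The length trend was a lowess fit (fraction 0.3) over 9792 protein-coding genes with at least 100 counts. Named besides the 10 genes were listed genes at 2-fold or more in any comparison or, where under 3, the 3 with the largest ratios in KO against WT. Genes, lists and tests were chosen with earlier results of these data known.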

Additional observations from a re-analysis of the deposited data

How the results depend on the processing

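Each ratio of the 10 genes was recomputed under 7 alternatives: total counts, DESeq2 size factors, the sum over transcripts, another choice of transcript in 2 ways, the length trend removed, and a pseudocount of 1. With the length trend removed, 22 of 30 ratios stayed inside their counting intervals; under each other alternative all 30 did. For KO against WT, and for rescue against WT, no ratio took the other sign. In rescue against KO, Calr, Dnajb9 and Sdf2l1 did so with the trend removed (-0.038, -0.059 and -0.18), and Sdf2l1 also with total counts (-0.0060). With the trend removed, 1 of the 10 genes, Dnajb9, was past 1.5-fold in KO against WT, and the median in rescue against KO was -0.11. For the other lists, counts past 1.5-fold in KO against WT that moved with the trend removed stand beside them above. None of the 10 passed 2-fold under any of these alternatives. Without the low-count filter, 6937 genes in place of 1260 were past 2-fold in KO against WT, 5274 in place of 251 in rescue against KO, and 6723 in place of 1024 in rescue against WT. Leaving out a replicate was not possible with 1 library per group.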

Other observations

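Enzymes that modify and fold collagen inside the ER were followed as a further list. All 14 passed the filter, with medians of 0.30 for KO against WT and of 0.18 for rescue against WT on the log2 scale, beside 0.00051 and 0.0099 for all genes. Of the 14, 12 were above 0 in KO against WT (50.1% of all genes were), among them Serpinh1, P3h1 and Crtap with intervals that held 0. At least 2-fold higher in both were 3, beside 9.42% and 7.65% of all genes past 2-fold in either direction. These were the prolyl hydroxylases P4ha3 (counts of 14, 72 and 53 for WT, KO and rescue), P3h2 (33, 95 and 85) and P3h3 (30, 102 and 83). All 3 are low in these libraries, and their intervals are wide: that of P4ha3 ran from 1.55 to 3.33 in KO against WT. Serpinh1, the abundant collagen chaperone HSP47, named after its values were seen, had 12082, 12014 and 12216 counts. Plod2, a lysyl hydroxylase also named after its values were seen, had 1452, 2681 and 2438 (1.88-fold higher in KO). Col1a1, a collagen chain, had 5243, 18763 and 16217 counts, and its part in these values was not tested.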
